A study of Mus musculus with 8 samples.

Results

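The circadian clock genes are described here in mouse CD8 T cells that had met tumour cells carrying much or little PD-L1, which binds PD-1, an inhibitory receptor of T cells. The members were the activators Arntl and Clock, the repressors Per1, Per2, Cry1 and Cry2, the nuclear receptors Nr1d1 and Nr1d2, and the output factors Dbp and Tef. They were taken by symbol from probe sets annotated with exactly 1 gene. All 10 had a probe set, out of 12393 genes in all, and together they had 16 probe sets. The set was chosen from earlier results of these data: Nr1d2 was taken up for its difference between targets, the 52nd largest upward among 8003 tested genes. For Nr1d2 the differences between targets and between mice are therefore given as descriptions, with no p-value. Where a count of passing members or genes includes Nr1d2, its call is a description too. The other members were added as genes of the same pathway.

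The T cells came from OT-1 mice, whose CD8 T cells carry 1 transgenic receptor for an ovalbumin peptide. Activated cells were kept for 4 h with peptide-loaded ID8 cells, a mouse ovarian cancer line, with 30 T cells for each ID8 cell, and were recovered by magnetic separation. The targets either overexpressed PD-L1 or were depleted of it, by means the labels do not give. The cells of each of 4 mice (A, B, C, D) were split between the targets, giving 4 arrays for the overexpressing and 4 arrays for the depleted targets. Strain details beyond OT-1, ages and the hour of the day at which cells were collected are not in the labels.

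The clock is a feedback loop that most cells run on their own, T cells included. CLOCK and BMAL1, the product of Arntl, bind E-boxes (CACGTG) and switch on the Per, Cry, Nr1d, Dbp and Tef genes. PER and CRY proteins return to the nucleus and hold CLOCK and BMAL1 back, and the REV-ERB receptors, products of Nr1d1 and Nr1d2, bind AGGTCA elements and repress Arntl. DBP and TEF are output factors that bind D-boxes. In a population of cells that is not synchronised, the phases of single cells are averaged in bulk RNA.

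Expression is on the log2 scale of the deposited values. A difference between targets is the value with PD-L1-overexpressing minus that with PD-L1-depleted targets. Genes were tested where the mean over the 8 arrays was at least 6.87, the 40th percentile of all probe sets. Of the members, 6 passed this filter (Per1, Cry1, Cry2, Nr1d2, Dbp and Tef). Arntl, Clock, Per2 and Nr1d1 lay under it, Arntl with a mean of 6.871 only just, and are given as levels. T cell markers were high on every array, with Cd8a at 12.48 to 12.79 and Cd3e at 10.96 to 11.23. Of 19 tumour cell and mesothelial markers, 11 were tested, and all 11 are summed here on the linear scale. That sum ran from 3120 to 7610 on the overexpressing arrays and from 2933 to 6930 on the depleted arrays, with Tm4sf1 the brightest at 9.72 to 11.40 and Lox near the filter at 6.58 to 7.35 (log2). No arrays of T cells without targets were analysed here, so the level of these markers in the T cells themselves is not known. The mean of the 11 markers was higher with overexpressing targets in mice A, C and D and lower in mouse B. Whether the labels of the 2 mouse B arrays are crossed could not be settled from the labels or the values. The labels were kept, and each difference of mouse B and each group mean rests on them. In bulk RNA, fewer cells of a type and less RNA per cell cannot be told apart.

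No member passed the test between targets. With the mouse as a block, limma called 0 of 8003 genes (0%), and 0 of the 6 tested members, with a smallest adjusted p of 0.9995. An unadjusted p under 0.05 was seen for 228 of the tested genes. The groups of 4 arrays overlapped for all 16 probe sets of the members, while 36 of the tested genes (0.450%) had groups apart. Of the 6 tested members 4 were on the higher side with overexpressing targets and their median difference was 0.050, beside 53.4% higher and a median of 0.0033 over all tested genes. Over all 10 members, 6 were higher, with a median of 0.011. These counts and medians include Nr1d2, which was chosen from this contrast, so they are descriptions. The other tested members differed by -0.013 (Per1), 0.042 (Cry1), 0.059 (Cry2), 0.084 (Dbp) and -0.011 (Tef). Without mouse B, the differences were -0.0017 for Per1, 0.0067 for Cry1, 0.038 for Cry2, 0.054 for Dbp and 0.0084 for Tef, and none of these 5 passed (limma adjusted p of 0.813 to 0.993).

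**Figure D1:**
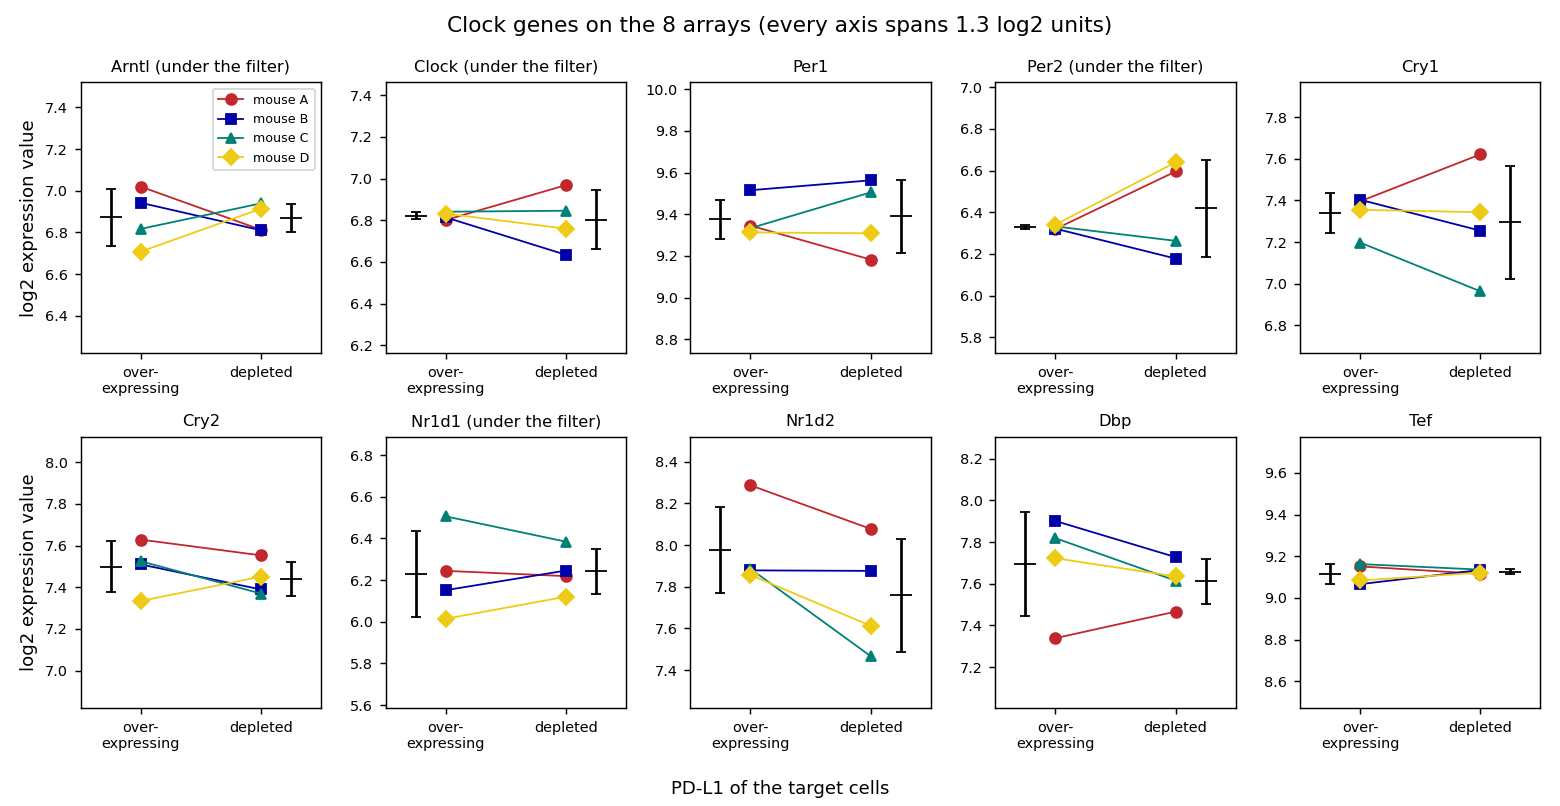
Log2 expression value (vertical axis, 1.3 log2 units in every panel) of the 10 clock genes on each array, with PD-L1-overexpressing targets on the left and PD-L1-depleted targets on the right of each panel. Lines join the arrays of a mouse, and black bars give the mean and SD of 4 arrays. The groups overlap in every panel, and mouse A is the highest for Nr1d2 and the lowest for Dbp on both sides.

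Nr1d2 encodes REV-ERB beta, a nuclear receptor that represses genes of the clock and of metabolism. It read 8.29, 7.88, 7.89 and 7.86 in mice A to D with PD-L1-overexpressing targets, against 8.08, 7.88, 7.47 and 7.61 with PD-L1-depleted targets. Mouse A was the highest with either target, and mice C and D were the lowest with PD-L1-depleted targets. The groups averaged 7.98 ± 0.21 and 7.76 ± 0.27 (SD, n = 4 each), a difference of 0.22 (SE 0.069). Taken by animal, mouse A differed by 0.21, mouse B by 0.0025, mouse C by 0.42 and mouse D by 0.24, so mouse B showed hardly any. Of the variance of Nr1d2 over the arrays, 68.7% lay between mice and 21.4% between targets. Medians over all tested genes were 73.8% and 2.83%. Nr1d2 was chosen for its difference between targets, so a large difference and a large share between targets follow from that choice.

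The difference of Nr1d2 rests on 1 of its probe sets. The second, which lay under the filter, read 5.86, 5.73, 5.74 and 5.63 with PD-L1-overexpressing targets, against 5.91, 5.61, 5.83 and 5.82 with PD-L1-depleted targets. It went the other way, by -0.049 ± 0.13 (SD of 4 mice), and only mouse B was higher there. With the mean of both probe sets the difference was 0.085. Without mouse B the difference of the brighter probe set was 0.29. In that fit 176 genes passed, Nr1d2 among them, a call made on the contrast from which it was chosen.

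Tumour markers differed between the arrays in the same animals. The difference of their mean was 0.68, -0.96, 0.52 and 0.54 in the order A to D. Averaged over mice, 7 of the 11 markers were higher with overexpressing targets and 4 lower. Igfbp5 was lower in all mice (-0.15, -0.12, -0.22 and -0.20), and Cav1 differed by 0.023, 0.020, -0.42 and -0.17 in the same order. Mouse B, the animal with the reverse marker difference, was also the one with the smallest difference in Nr1d2. The part of target RNA in the Nr1d2 values was not tested. For the mean of the CD8 T cell markers, the same differences were 0.034, 0.0046, -0.013 and -0.00046. The mean of the 3 tested CD4 and regulatory T cell markers was 9.19 to 9.23 with overexpressing and 9.24 to 9.31 with depleted targets, lower in 4 of 4 mice, with a difference of -0.076 ± 0.033 (SD). The groups of this mean did not overlap, while those of each of its 3 genes did. The 0.450% of tested genes with groups apart is a share of single genes and gives no rate for list means. Of the list means examined, this was the only one with groups apart. Cd4 differed by -0.18, Zbtb7b by -0.052 and Il2ra by 0.0020, so the mean rests mostly on Cd4. Foxp3 and Ikzf2 lay under the filter. The mean of the 14 tested immediate early genes was also lower in 4 of 4 mice, with a difference of -0.080 ± 0.046 (SD) and groups that overlapped. Their part in the Nr1d2 values was not tested.

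Its relative Nr1d1, the gene of REV-ERB alpha, lay under the filter and showed no such difference. The dimmer Nr1d2 probe set, also under the filter, did not show it either, so signals this low do not set these genes apart. Nr1d1 read 6.24, 6.15, 6.51 and 6.01 with PD-L1-overexpressing targets, against 6.22, 6.25, 6.38 and 6.12 with PD-L1-depleted targets. The difference was -0.013 ± 0.11 (SD of 4 mice), higher in mice A and C and lower in B and D. Mouse C, the lowest for Nr1d2 with PD-L1-depleted targets, was the highest for Nr1d1 with either target.

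Because Nr1d2 and Dbp are the members whose levels set mouse A apart, the bases before their RefSeq starts are shown, with Per1 as a member that holds an E-box. Each is 250 bases upstream of an annotated start in GRCm38.p6, given 5′ to 3′ on the strand of the gene. Capitals mark matches to CACGTG or AGGTCA on either strand.
Nr1d2: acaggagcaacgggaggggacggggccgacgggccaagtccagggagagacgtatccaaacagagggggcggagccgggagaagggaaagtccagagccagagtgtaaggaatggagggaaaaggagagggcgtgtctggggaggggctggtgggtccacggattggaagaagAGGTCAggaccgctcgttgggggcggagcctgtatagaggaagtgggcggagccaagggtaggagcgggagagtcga
Dbp: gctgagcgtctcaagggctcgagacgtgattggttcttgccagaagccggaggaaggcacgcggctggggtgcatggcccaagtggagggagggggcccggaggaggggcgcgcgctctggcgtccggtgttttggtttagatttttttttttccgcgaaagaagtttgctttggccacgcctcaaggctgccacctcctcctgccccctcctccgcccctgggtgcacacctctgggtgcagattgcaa
Per1: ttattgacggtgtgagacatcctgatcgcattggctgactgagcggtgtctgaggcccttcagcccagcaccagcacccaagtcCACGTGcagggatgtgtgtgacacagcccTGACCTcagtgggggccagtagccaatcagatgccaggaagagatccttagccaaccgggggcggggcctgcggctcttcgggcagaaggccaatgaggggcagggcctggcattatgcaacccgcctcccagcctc
The Nr1d2 stretch is chr14:18239107-18239356 on the minus strand, that of Dbp is chr7:45704997-45705246 on the plus strand, and that of Per1 is chr11:69098699-69098948 on the plus strand. In Nr1d2, AGGTCA lies at -77 to -72 from the start on the strand of the gene. In Per1, CACGTG lies at -166 to -161, and AGGTCA is read on the opposite strand at -137 to -132. The bases before another annotated start of Per1, not shown, held no match to either. No letters of the Dbp stretch matched.

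Windows of 300 bases, from 250 before to 50 after a start, were in the table for 9 members, 14 windows in all, and both strands were searched. CACGTG was found in 4 windows, of Per1, Cry1 and Tef, against 7.15% of all 32851 windows. AGGTCA was found in 4 windows, of Nr1d2, Per1, Clock and Arntl, against 16.3% of all windows. The D-box letters TTANGTAA and the cyclic AMP element TGACGTCA were in none of the 14, and in 2.32% and 1.79% of all windows. No matches in the members overlapped each other. A match is a string of letters in this window and says nothing of binding in these cells.

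The activators were low and nearly equal between targets. Arntl read 7.02, 6.94, 6.82 and 6.71 with PD-L1-overexpressing targets, against 6.81, 6.81, 6.94 and 6.91 with PD-L1-depleted targets. It was higher in mice A and B and lower in C and D, with a mean difference of 0.0026 ± 0.20 (SD of 4 mice). Clock differed by 0.020 ± 0.15 in its brighter probe set and by 0.0092 ± 0.16 in the other. Its arrays with PD-L1-overexpressing targets lay closer together, at 6.80 to 6.84, than those with PD-L1-depleted targets, at 6.63 to 6.97. The spread itself was not tested.

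Per1, a repressor gene that is also switched on within hours by cyclic AMP signalling and glucocorticoids, was equal between targets within its error. It read 9.35, 9.52, 9.33 and 9.31 with PD-L1-overexpressing targets, against 9.18, 9.56, 9.50 and 9.31 with PD-L1-depleted targets. The difference was -0.013 (95% interval -0.13 to 0.11). Mouse B was the highest with either target. Per2 read 6.32, 6.32, 6.33 and 6.34 with PD-L1-overexpressing targets, against 6.60, 6.18, 6.26 and 6.64 with PD-L1-depleted targets. Mice A and D were lower with PD-L1-overexpressing targets and B and C higher, with a mean of -0.091 ± 0.23 (SD of 4 mice). Its second probe set went the other way, by 0.067 ± 0.13.

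The cryptochrome genes, whose products are the main inhibitors of CLOCK and BMAL1, did not pass either. Cry1 read 7.40, 7.40, 7.20 and 7.35 with PD-L1-overexpressing targets, against 7.62, 7.25, 6.96 and 7.34 with PD-L1-depleted targets. Mouse C was the lowest with either target, and the difference was 0.042 (95% interval -0.14 to 0.22). Cry2 read 7.63, 7.51, 7.53 and 7.33 with PD-L1-overexpressing targets, against 7.55, 7.39, 7.37 and 7.45 with PD-L1-depleted targets. It was higher in mice A, B and C and lower in D, with a difference of 0.059 (95% interval -0.085 to 0.20).

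Among the output factors, Dbp read 7.34, 7.90, 7.82 and 7.72 with PD-L1-overexpressing targets, against 7.47, 7.73, 7.61 and 7.64 with PD-L1-depleted targets. Mouse A was the lowest with either target and the only one in which the value with PD-L1-overexpressing targets was the smaller. The difference was 0.084 (95% interval -0.066 to 0.23), and -0.055 ± 0.091 (SD of 4 mice) in the dimmer probe set. Tef, a relative of Dbp, had the narrowest values of the tested members, 9.07 to 9.16 over the 8 arrays. Its difference was -0.011 (95% interval -0.10 to 0.079). The other Tef probe sets differed by -0.10 ± 0.10 and -0.12 ± 0.080 (SD of 4 mice), lower in 4 of 4 mice, and the mean of all 3 probe sets differed by -0.078 without passing (limma adjusted p = 0.9996).

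**Figure D2:**
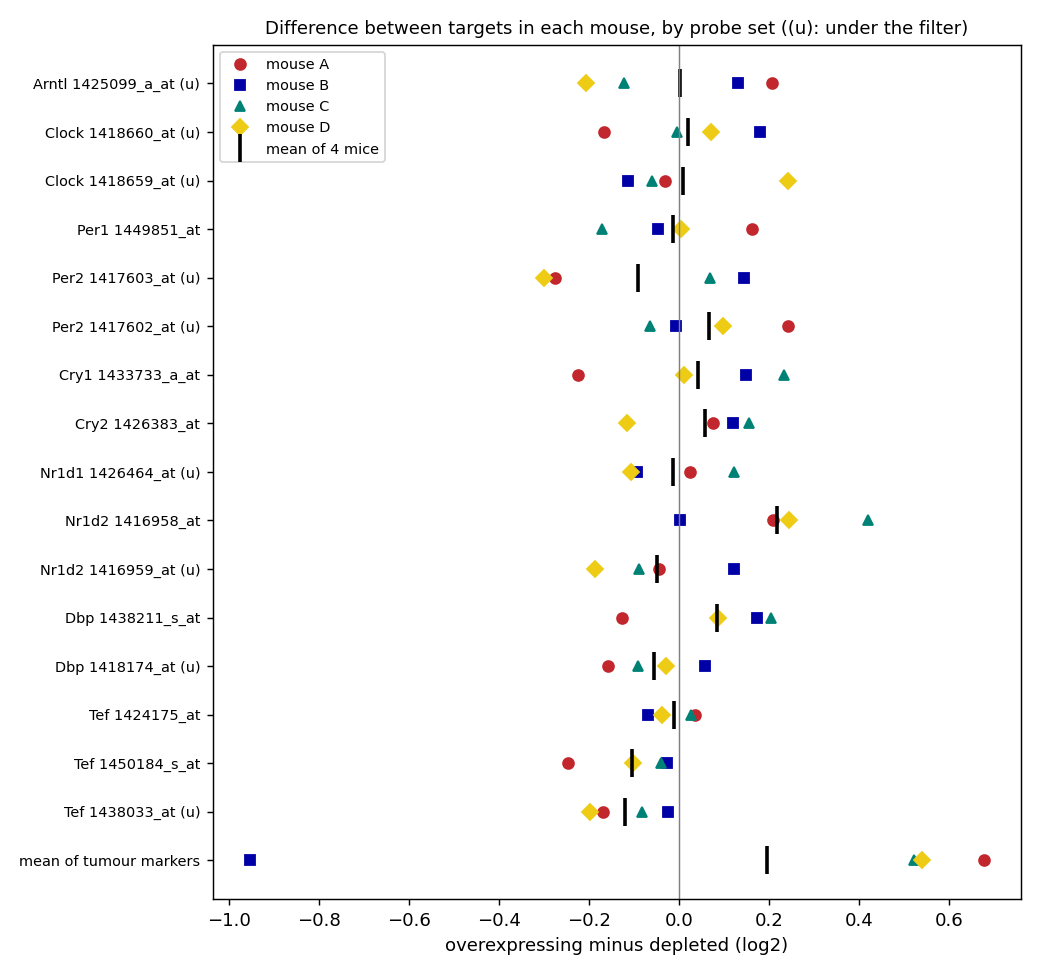
Difference between targets (overexpressing minus depleted, log2, horizontal axis) for each probe set of the clock genes and for the mean of the tumour markers, by mouse, with the mean of 4 mice as a black line. Nr1d2 lies at 0.0025 to 0.42 in its brighter probe set and on both sides of 0 in the dimmer one. The mean of the tumour markers lies below 0 in mouse B alone.

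The animals differed more than the targets did. In the limma F test between mice, 2347 of 8003 genes passed (29.3%). Of the 5 tested members other than Nr1d2, 1 passed, Dbp. Nr1d2 was already known to stand high in mouse A and is left out of that count. Against the mean of the other 3 mice, 18.1% of tested genes were higher and 12.7% lower in mouse A. Mouse B had 6.30% higher and 2.96% lower, mouse C 3.09% and 5.35%, and mouse D 4.56% and 4.09%. Each mouse gave 1 array per target, so the error of this test is the spread between arrays of the same animal.

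In mouse A, Dbp fell by 0.33 (log2, SE 0.077) relative to the mean of the other mice (limma adjusted p = 0.0105). Its mouse means were 7.40, 7.81, 7.72 and 7.68 from A to D, and the F test gave an adjusted p of 0.0381. The F test without mouse A gave limma adjusted p = 0.509. The dimmer Dbp probe set also had its lowest mean in mouse A, at 6.50, against 6.75, 6.76 and 6.84 in B, C and D. Nr1d2 ran opposite to Dbp in mouse A, with mouse means of 8.18, 7.88, 7.68 and 7.73 from A to D. It was higher in mouse A by 0.42 (SE 0.080). In its dimmer probe set mouse A was also the highest, at 5.89, against 5.67, 5.78 and 5.73 in B, C and D.

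The other members did not pass between mice. Per1 had its highest mean in mouse B, 0.21 (SE 0.061) above the others (limma adjusted p = 0.0702), and an F test adjusted p of 0.0652. Cry1 had mouse means of 7.51, 7.33, 7.08 and 7.35 in A to D, with an F test adjusted p of 0.0763 by limma. It was 0.26 above the others in mouse A and 0.31 below them in C, neither of which passed. Cry2 was highest in mouse A, by 0.16, and Tef differed by at most 0.049 between mouse means (limma F test adjusted p = 0.318 and 0.815). Under the filter, Nr1d1 had its highest mean in mouse C, at 6.44, and its lowest in D, at 6.07. In a fit with no filter, Nr1d1, Per2, Arntl and Clock had F test adjusted p of 0.0911, 0.376, 0.878 and 0.613 by limma.

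**Figure D3:**
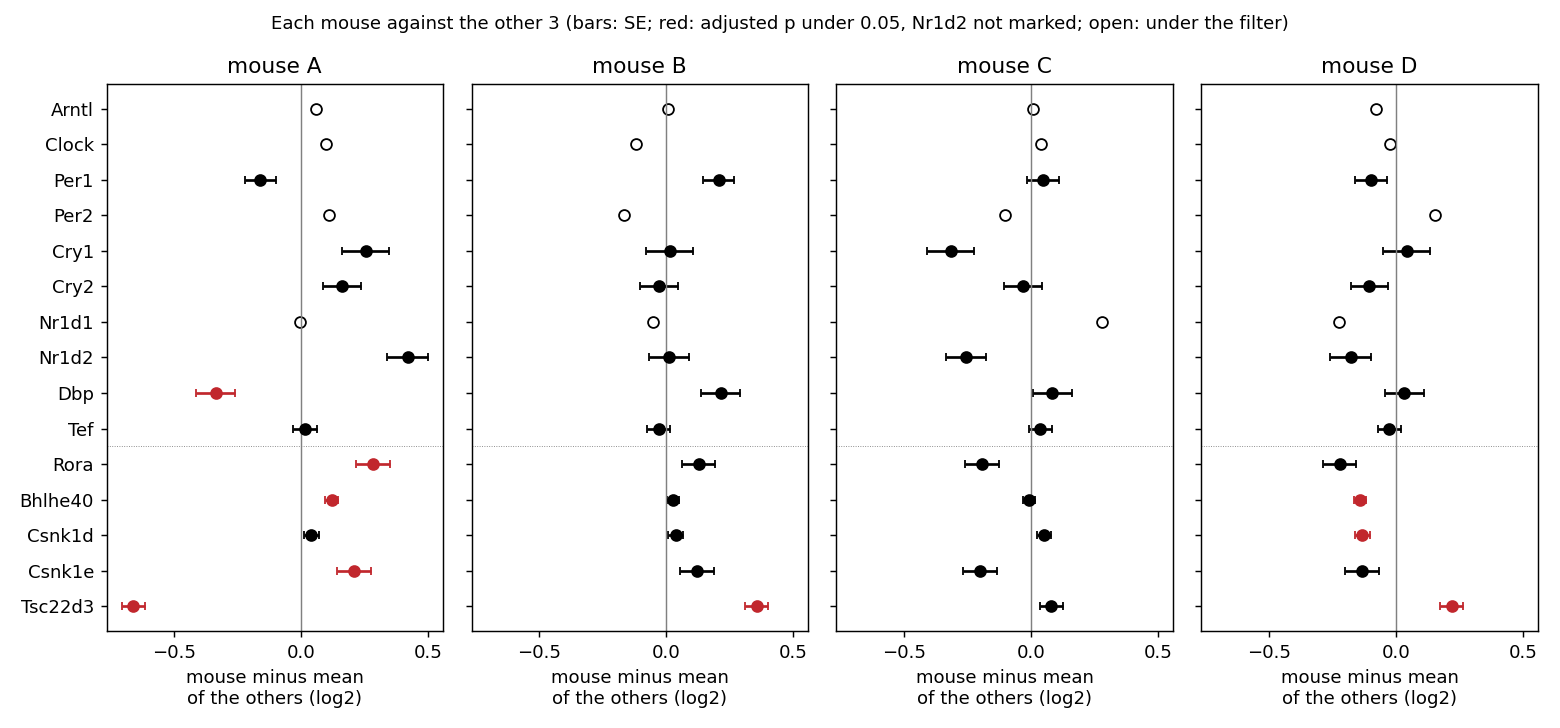
Each mouse minus the mean of the other mice (log2, horizontal axis) for the 10 clock genes and, under the dotted line, the 5 other clock-related genes that passed between mice. Bars are the SE of the limma fit, red marks an adjusted p under 0.05 (not marked for Nr1d2, which was chosen on these data), and open points lie under the filter. In mouse A Nr1d2 lies at 0.42 and Dbp at -0.33.

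Other RNA differed between the animals too. The mean of the 6 CD8 T cell markers was 12.31 in mouse A, against 12.45, 12.44 and 12.47 in B, C and D. The mean of the 4 tested B cell markers (Ighm, H2-Aa, H2-Ab1 and Cd74) was 10.03, 11.32, 10.23 and 10.94 from A to D. Cd79a, Cd79b, Ms4a1 and Blk of that list lay under the filter. The mouse means spanned 3.40 for H2-Aa, 0.83 for Ighm, 0.83 for H2-Ab1 and 0.72 for Cd74, so this mean rests mostly on H2-Aa. Against the other mice, mouse A differed by -0.65 for Ighm, -2.02 for H2-Aa, -0.54 for H2-Ab1 and 0.026 for Cd74. The content of B cells was not tested. The mean of the 14 immediate early genes, the first genes that receptor signalling switches on, was 10.63 in mouse B, the highest for Per1, and 10.27, 10.33 and 10.18 in A, C and D. The tumour marker mean was 8.11, 8.30, 8.65 and 8.57 in the same order. The part of these differences in the clock genes was not tested.

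Further genes of the clock pathway, 31 in 3 lists, had 25 genes on the array and 19 tested. None passed between targets (0 of 19), with 9 higher, 10 lower and a median difference of -0.0006. Between mice 5 of 19 passed, beside 29.3% of all tested genes. Of the other clock factors these were Rora and Bhlhe40. Rora, the activator that competes with the REV-ERB receptors for the same elements, rose in mouse A by 0.28 (SE 0.066, limma adjusted p = 0.0110). With its probe sets averaged that was 0.15 and did not pass (limma adjusted p = 0.0586). Bhlhe40, also called Dec1, a repressor at E-boxes, rose in mouse A by 0.12 (SE 0.024) and fell by 0.14 in D (limma adjusted p = 0.0052 and 0.0073). Both calls were lost without a trend (0.0625 and 0.101 by limma), that in A also without mouse D (0.0556) and that in D also without mouse A (0.0709). Rora read 8.99, 8.97, 8.62 and 8.75 with PD-L1-overexpressing targets, against 9.14, 8.93, 8.79 and 8.62 with PD-L1-depleted targets, highest in mice A and B.

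Among the kinases and ubiquitin ligases that set the life of PER and CRY proteins, Csnk1d and Csnk1e passed between mice. Csnk1d fell in mouse D by 0.13 (SE 0.029, limma adjusted p = 0.0235), with 11.44 and 11.41 there against 11.55 to 11.56 on the arrays of the other mice. That call was lost without a trend and without mouse A (limma adjusted p = 0.0986 and 0.0942). Csnk1e rose in mouse A by 0.21 (SE 0.067, limma adjusted p = 0.0412), a call lost under 6 of the alternative settings. Csnk2a1 and Gsk3b were also higher in mouse A, by 0.13 and 0.22 (limma adjusted p = 0.0364 and 0.0416), but did not pass the F test (0.118 and 0.0587). Of the output genes, Tsc22d3, a glucocorticoid-induced gene that restrains T cell activation, passed. It fell in mouse A by 0.66 (SE 0.045, limma adjusted p = 1.0e-05) and rose by 0.36 in B and 0.22 in D, which were 0.16 and 0.0007 without mouse A, neither passing. Its arrays read 10.19 and 10.02 in mouse A, against 10.65 to 10.87 in the other mice. Mouse A was thus the lowest for both Dbp and Tsc22d3.

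The genes whose values were most like those of Nr1d2 over the 8 arrays were Dstyk, Mark3, Abcb1a, Clpx and Ctcf, with Pearson correlations of 0.953 to 0.963. Of all tested genes outside the members, 52 had a correlation above 0.9. The arrays are pairs from 4 animals and share mouse A as the highest, so the correlation is a description. With each mouse's mean taken out, the most like were Cers2, Cyb5r1, Clpx, Itch and Zbed4, at 0.993 to 0.994, and 161 genes lay above 0.9. That measure holds only the 4 differences between targets, which include the small one of mouse B. With so few values, high correlations arise easily between unrelated genes. How many genes would lie above 0.9 by chance was not computed for either measure, so neither count shows shared regulation.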

How the data were processed

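Total RNA of the recovered T cells was labelled with biotin by a 3' in vitro transcription kit and hybridised to 8 Affymetrix arrays, per the labels' protocols. The authors deposited log2 expression, 1 number for each probe set on each array, with a largest gap of 0.167 between arrays at equal rank. The summarisation and normalization are not given in the sources used here, and the scale was taken to be log2 from their range. Of 22690 probe sets, 64 controls were left out. Symbols came from the platform annotation, where 20380 probe sets had 1 symbol, 691 several and 1555 none. The probe set with the highest mean stood for its gene, and probe sets with a mean under 6.87 were not tested. Differences were fitted with limma 3.58.1 in R 4.3.3 (eBayes with a trend), with target and mouse as terms and Benjamini-Hochberg adjustment over 8003 genes at a threshold of 0.05. The fit was run on simulated data with known changes and independent noise. Those data had no differences between mice beyond the changes put in, unlike the arrays. That run checks the code and not the error rates in these arrays. Arrays of 1 mouse were paired because the cells came from the same animal, and their deviations from the group means correlated at 0.824, 0.159, 0.610 and 0.635 in mice A to D over 8003 genes. The number of arrays limits the precision. Members, gene lists and tests were chosen with earlier results of these data known. The text names all members, the clock-related genes that passed between mice, and the 5 genes most like Nr1d2 by each measure. Alternatives were no block, a random block, other normalization, other filters, other handling of probe sets, no trend, a looser threshold and leaving out each mouse.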

Additional observations from a re-analysis of the deposited data

Results flagged for a closer look

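Of 54 groups of 4 arrays, 6 held 1 array well apart from the rest, and about 1 group in 20 does so by chance. That rate does not hold for Nr1d2, already known to stand high in mouse A. Nor does it hold for Csnk1d and the other clock-related genes examined because they passed between mice. The gap to the nearest array is given as a share of the group's range. With PD-L1-overexpressing targets, mouse A was apart for Nr1d2 (0.931, highest), mouse B for Per1 (0.837, highest) and mouse D for the dimmer Clock probe set (0.949, highest). Csnk1d was apart in mouse D, lowest among the overexpressing arrays (0.902) and among the depleted arrays (0.940). The mean of the CD8 T cell markers was apart in mouse A with PD-L1-depleted targets (0.891, lowest).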

How the results depend on the processing

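Between targets, 0 members and 0 genes passed under every alternative but leaving out mouse B, also without the replicate block that pairs the arrays of a mouse (0 genes). Over the fits that leave out 1 mouse, 0 to 1 members and 0 to 176 genes passed, the member being Nr1d2, which was chosen from this contrast. Its difference ran from 0.15 without mouse C to 0.29 without mouse B. That of Tef moved to -0.078 with the mean of its probe sets, and the other 139 differences of members moved by less than their SD over mice. Many of them could not move, because the block, filter, trend, threshold and use of all probe sets leave a mean difference unchanged. With probe sets averaged, Nr1d2 went from 0.22 to 0.085, Per2 from -0.091 to -0.012 and Dbp from 0.084 to 0.015, all within that SD. Between mice, counting Nr1d2, 2 members passed as reported, 1 passed with no filter, with a filter at the 60th percentile, with probe sets averaged by gene or without a trend, and 4 passed at a threshold of 0.10. Under the stricter filter and with averaged probe sets, Nr1d2 itself lay under the filter and was not tested. Dbp, Cry1 and Cry2 were not tested under the stricter filter either, and the 1 member that passed there was Per1. Leaving out 1 mouse gave 0 members (without A) to 3, and 576 (without A) to 3555 genes (without B). Dbp lost its F test call with no filter (limma adjusted p = 0.0509), without a trend (0.0513) and without mouse A (0.509), and its mouse A difference kept an adjusted p of 0.00339 to 0.0240. Per1 passed with median centring (0.0462), the 60th percentile (0.0474) and without mouse C (0.0386), and Cry1 without mouse B (0.00523). The causes were not tested. Signals near the filter limit what can be said of Arntl, Clock, Per2 and Nr1d1.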
